A study of Gelatoporia subvermispora and Trametes versicolor with 24 samples.

Results

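The comparison described here set standing (static) cultures of the white-rot fungus Gelatoporia subvermispora that received antioxidants against standing cultures that did not. It rests on 6 of the 24 samples of the series, 3 in each group, chosen by species, culture state and antioxidant addition as their titles state them. All 6 came from strain FP-105752 and were grown at 28 °C in 25 mL of Czapek-Dox medium, a defined mineral medium, with 15 mM cellobiose, the sugar unit of cellulose. On day 10 all of them were given about 2 mM 4-hydroxybenzoate, an aromatic acid related to lignin, and they were harvested 24 h later, on day 11. The 3 static cultures with antioxidants had received ascorbic acid (to 5 mM) and α-tocopherol (to 1 mM) 30 min before the aromatic acid, and the 3 static cultures without antioxidants had not. The labels do not say whether the cultures without antioxidants received the solvent of the antioxidants, nor whether the 3 replicates of a group were separate flasks. P-values therefore measure the spread between these samples only. Another 6 libraries of the same strain, from cultures agitated at 220 rpm (3 with and 3 without the same antioxidants), were fitted together with them. They share the estimate of the spread with the static comparison, while its fold changes compare counts of the static libraries, so the antioxidant effect in agitated culture was read in other samples.

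White-rot fungi take lignin apart with secreted peroxidases and laccases, which oxidise it through short-lived radicals, and then take up and metabolise the aromatic fragments. G. subvermispora is known for removing lignin ahead of cellulose and for its manganese peroxidases. Ascorbic acid is a water-soluble reductant and α-tocopherol a fat-soluble one that interrupts the chain oxidation of membrane lipids. The comparison asks which transcripts differ with these antioxidants in the medium while the fungus meets an aromatic acid.

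The deposited tables give genes as running numbers and do not pair them with names or products. The families one would want to follow here, among them manganese peroxidases, laccases, cytochromes P450, catalases and glutathione S-transferases, could therefore not be counted, and no gene is given a function below. Gene lengths are not used here either, so levels are compared between groups for the same gene and never between genes. Levels are in CPM, the reads of a gene per 1000000 gene reads of its library after TMM scaling. In RNA from whole mycelium, fewer cells using a gene and less of its RNA per cell cannot be told apart, and a CPM is a share of the RNA, not an amount.

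The static libraries with antioxidants held 26653884, 23530945 and 17585100 gene reads and those without held 7875324, 17939417 and 22838686. Replicate 1 without antioxidants was the shallowest of the 6 and also stood apart from its group. Across genes its log2 CPM correlated with replicates 2 and 3 of its own group at 0.987 and 0.985, and with the 3 static libraries with antioxidants at 0.989, 0.990 and 0.984. In a principal component analysis of the 6 libraries, the first component held 37.9% of the variance and scored the libraries with antioxidants at 16.5, 10.1 and 5.13. Those without scored 9.67, -18.3 and -23.1, so that on this component replicate 1 lay among the libraries with antioxidants. The second component held 28.2% and scored the libraries with antioxidants at 1.66, 4.12 and 20.7 and those without at -23.3, -4.58 and 1.46. There the groups did not overlap, and replicate 1 lay farthest from the libraries with antioxidants. The static and difference counts of calls, and the static fold changes of the genes printed by number, are also given without this library. The groups were also compared in 9 measures by exact two-sided permutation tests, in which 3 against 3 libraries cannot go below p = 0.1. These measures covered library quality and composition and the scores on the principal components. The first component gave an exact permutation p of 0.2 (adjusted p = 0.6) and the second an exact permutation p of 0.1 (adjusted p = 0.45). The share of reads left out for low mapping quality was 35.0 ± 4.92% with antioxidants and 38.1 ± 2.92% without (SD, n = 3 each, exact permutation p = 0.4, adjusted p = 0.6). The share of reads outside genes was 5.31 ± 0.00917% with antioxidants and 5.13 ± 0.0763% without (SD, n = 3 each), with no overlap (exact permutation p = 0.1, adjusted p = 0.45).

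Few genes passed the test in static culture, and most of those that did fell. Of 10529 genes tested, 38 were lower and 10 were higher with antioxidants than without, at a Benjamini-Hochberg adjusted p under 0.05 in the quasi-likelihood test of edgeR. These 48 genes were 0.456% of the genes tested, 0.361% for the falls and 0.095% for the rises. In agitated culture the same antioxidants gave 2343 calls in the same fit, 22.3% of the genes. The typical size of a difference was smaller in static culture too. The median absolute log2 fold change over all genes tested was 0.12 in static and 0.24 in agitated culture, and the 99th percentile was 0.96 in static and 1.75 in agitated culture. The median SE of a log2 fold change was 0.14 in both culture states. As they share the estimate of the spread, this does not compare their precision. Over all genes tested, the median coefficient of variation within static groups was 8.71% with and 10.4% without antioxidants. Within agitated groups it was 13.6% with and 6.86% without.

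**Figure D1:**
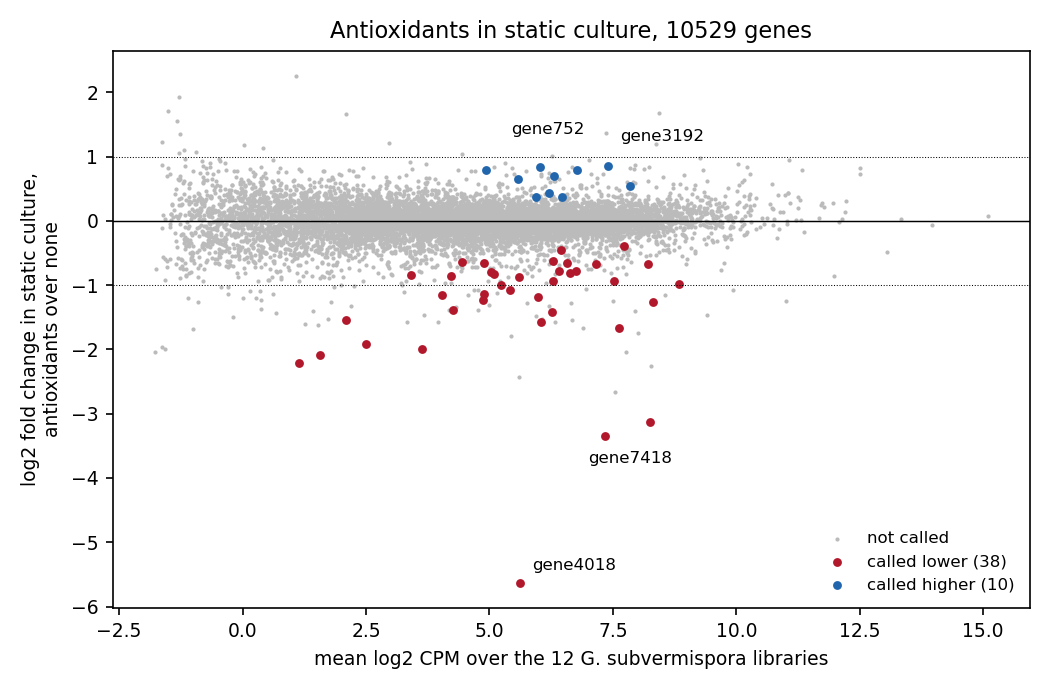
Log2 fold change of each gene in static culture, with over without antioxidants (y axis), against its mean log2 CPM over the 12 libraries (x axis). Each of the 10529 points is a gene, red for the 38 genes called lower and blue for the 10 called higher, and dotted lines mark a 2-fold difference. All 10 rises lie under the 2-fold line, while 18 of the falls lie beyond it.

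Beyond the 48 calls, further genes differed with less certainty. An unadjusted p under 0.05 was reached by 1217 genes, 11.6% of those tested, with 676 of them lower and 541 higher with antioxidants. At an adjusted p under 0.1 the count was 99, of which 71 were lower and 28 higher. Differences of at least 2-fold that were not called numbered 77. In 27 of these the libraries with and without antioxidants overlapped, and 39 had a mean log2 CPM under 3. The 3 libraries with antioxidants lay entirely below the 3 without in 970 genes (9.21%) and entirely above them in 950 (9.02%). All 38 lowered and all 10 raised genes were without overlap.

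The count of calls rested on single libraries. With replicate 1 of the group without antioxidants left out, the library that stood apart, 175 genes were called, 124 lower and 51 higher, and 47 of the 48 were among them. Each of the other 5 libraries lowered the count when it was left out. It came to 10, 16 and 27 with replicates 1, 2 and 3 of the group with antioxidants left out, and to 18 and 13 with replicates 2 and 3 of the group without them left out. Other tools moved it as well. DESeq2 called 248 genes and limma-voom 56, and 46 of the 48 were called by edgeR, DESeq2 and limma-voom alike. Same-numbered static libraries deviated together from their group means, but pairing was not tested and no label gives the meaning of a number. With the number as a replicate block over all 12 libraries the count was 28. It was 90 with the block in the static libraries within the same fit, and 322 with the block when the 6 static libraries were fitted alone.

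**Figure D2:**
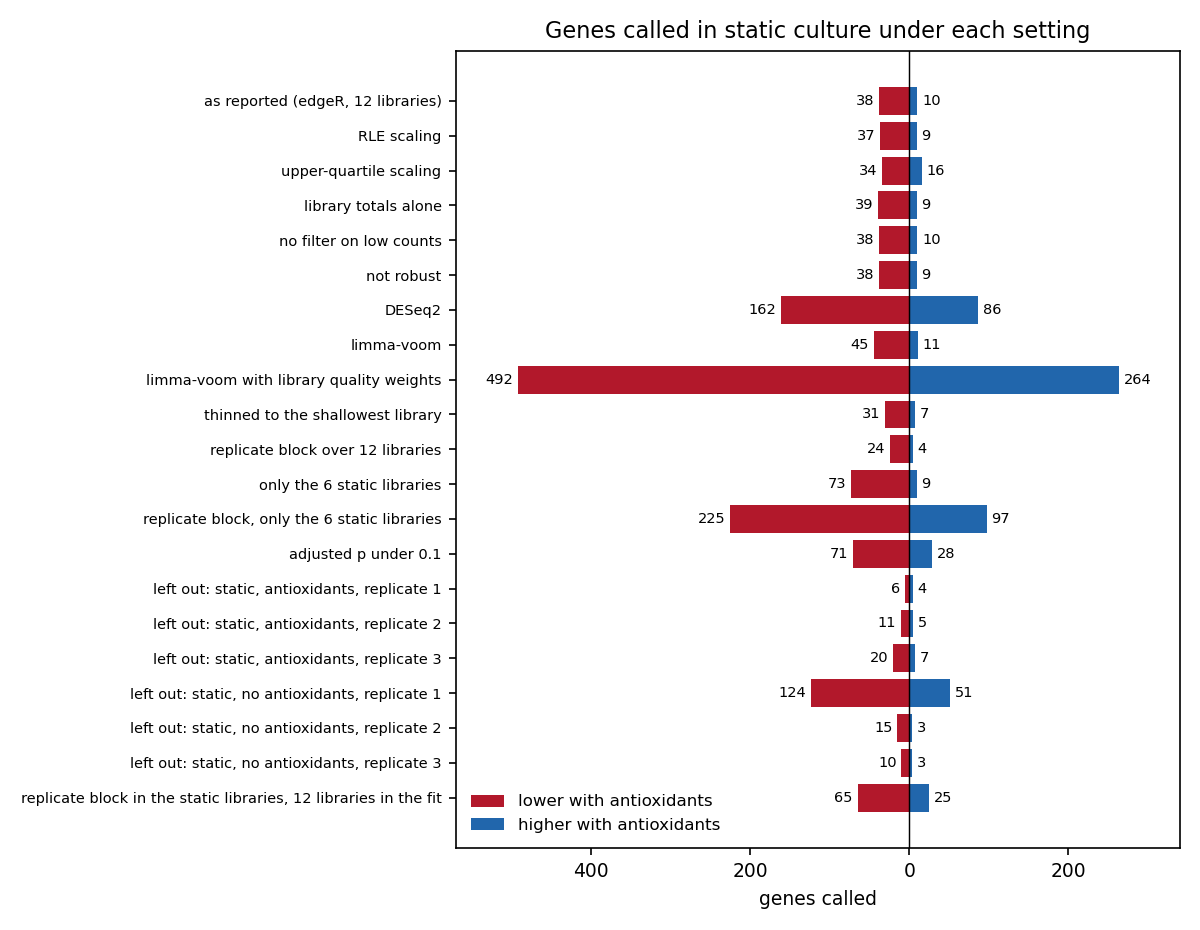
Number of genes called in static culture under each setting, with genes lower with antioxidants to the left of 0 (red) and genes higher to the right (blue). The bars run between 10 genes, without replicate 1 with antioxidants, and 756 genes, with limma-voom and library quality weights, and falls outnumber rises in every bar.

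The 48 genes differ in how far they depend on any 1 library. Of them, 9 (6 falls and 3 rises) were called whichever static library was left out. Another 18 were called only when replicate 1 without antioxidants was the library left out, and 1 was called in none of these 6 fits. Across these 6 fits and the 12 other settings of scaling, filtering, depth, tool, block and choice of libraries, 8 genes (5 falls and 3 rises) were always called. No gene of the 48 changed direction under any setting in which it was called.

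The lowered genes ranged widely in size. Their log2 fold changes ran between -0.38 and -5.63 with a median of -0.99, and their SEs between 0.0705 and 0.822 with a median of 0.15. Of the 38, 5 fell at least 4-fold, 13 fell 2- to 4-fold, 18 fell 1.5- to 2-fold and 2 fell by less. The median of their mean levels was 40.1 CPM with antioxidants and 95.5 CPM without. Together they took 0.247, 0.283 and 0.254% of the gene reads in the 3 libraries with antioxidants, against 0.563, 0.657 and 0.702% in the 3 without. The lowest of these shares without antioxidants was that of replicate 1, the library that stood apart. Replicate 1 was the lowest of its group for 23 of the 38 lowered genes, and for 39.4% of all genes tested. Left out, it changed the median fold of these genes little, to -1.03, with a larger fall for 26 of the 38.

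The largest fall was that of gene4018, whose RNA was close to gone with antioxidants. It had 1.21, 1.42 and 1.73 CPM in static libraries with antioxidants, against 18.6, 74.0 and 117 CPM in static libraries without. The reads behind these levels were 35, 37 and 31 with antioxidants and 161, 1442 and 2781 without. The groups did not overlap, but the libraries without antioxidants spread widely among themselves, with replicate 1 the lowest. The log2 fold change was -5.63 ± 0.82 (SE), with an adjusted p of 0.0159 in edgeR. With replicate 1 without antioxidants left out the log2 fold change was -6.06 (edgeR adjusted p = 0.00661). The call did not hold in limma-voom (adjusted p = 0.102), nor when any other static library was left out (edgeR adjusted p up to 0.114).

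Gene4018 was also lower with antioxidants in agitated culture, at 33.6, 91.2 and 208 CPM with and 718, 735 and 993 CPM without. The log2 fold change there was -2.88 ± 0.65 (SE, edgeR adjusted p = 0.0101). The falls in the 2 culture states were not shown to differ, since the test of the difference gave -2.75 ± 1.00 (SE) with an edgeR adjusted p of 0.110. The order of its group means put agitated culture without antioxidants highest and static culture with antioxidants lowest. The 2 groups between them, agitated with and static without antioxidants, overlapped.

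Gene7418 showed the second largest fall. It had 70.5, 108 and 109 CPM in static libraries with antioxidants, against 550, 1007 and 1375 CPM in those without. All 3 libraries with antioxidants lay far below the lowest library without, which was again replicate 1. The log2 fold change was -3.35 ± 0.56 (SE, edgeR adjusted p = 0.0311). With replicate 1 without antioxidants left out it was -3.64 (edgeR adjusted p = 0.0187). The call was lost with the replicate block over 12 libraries (edgeR adjusted p = 0.0516). It was also lost when any other static library was left out (edgeR adjusted p up to 0.169). In agitated culture this gene had 47.4, 123 and 21.4 CPM with antioxidants and 164, 124 and 209 CPM without. There the groups nearly touched, and the log2 fold change of -1.37 was not called (edgeR adjusted p = 0.0868). Its high level was thus found in the static libraries without antioxidants, where its log2 difference from agitated culture without antioxidants was 2.56 ± 0.54 (SE, edgeR adjusted p = 0.00257), a comparison that shares those 3 libraries.

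The third largest fall kept its call in more settings than the 2 larger ones. That gene had 60.7, 84.0 and 73.9 CPM in static libraries with antioxidants, against 390, 770 and 755 CPM in those without. Its log2 fold change was -3.13 ± 0.32 (SE, edgeR adjusted p = 0.00466), and it was called in each of the 18 other settings. In agitated culture its groups overlapped, at 374, 635 and 302 CPM with antioxidants and 485, 412 and 518 CPM without (log2 fold change -0.11, edgeR adjusted p = 0.82). The difference between the culture states was -3.02 ± 0.43 (SE, edgeR adjusted p = 0.00269).

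**Figure D3:**
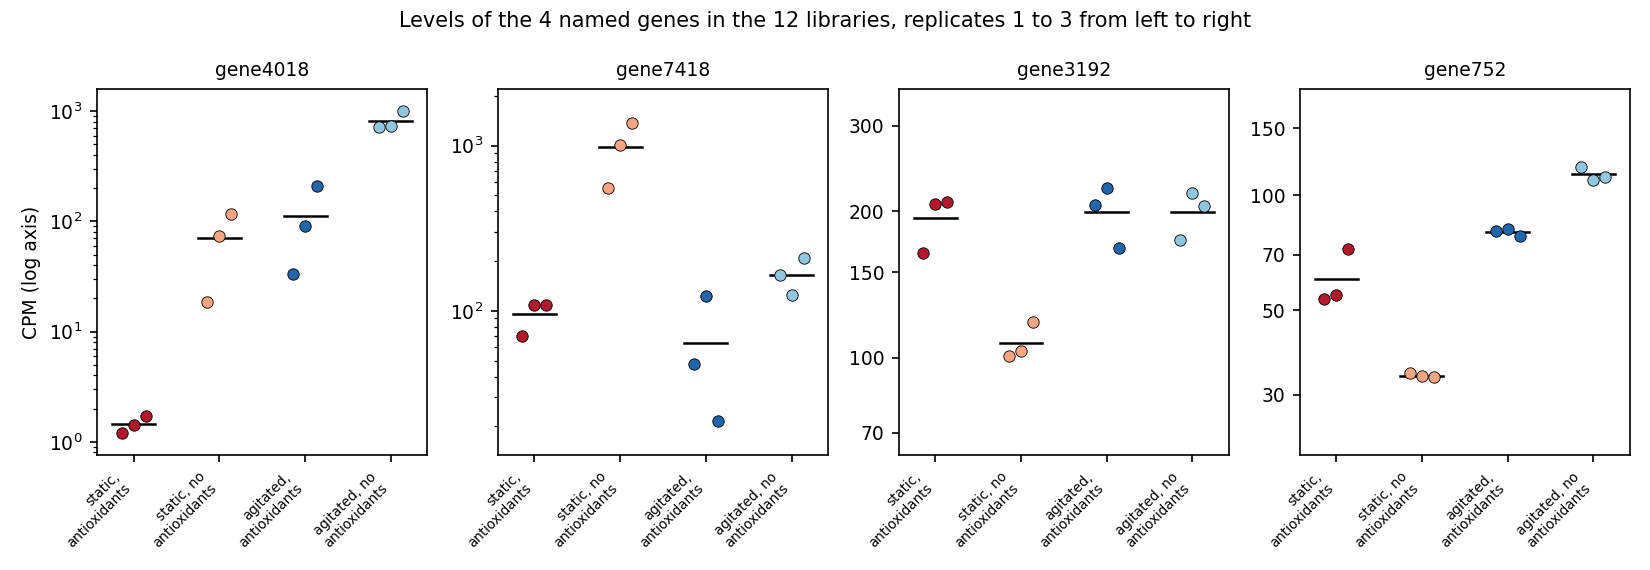
CPM, on a log axis, of the 2 genes with the largest falls and the 2 with the largest rises in static culture, in each of the 12 libraries. Points are replicates 1 to 3 from left to right and lines are group means. Gene4018 and gene7418 separate the static groups most widely but spread most within them, and gene752 is nearly constant at 33.3 to 34.1 CPM in static libraries without antioxidants.

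Some falls were in genes whose RNA was far higher in static than in agitated culture. The fourth largest was one of these. Static libraries with antioxidants had 4.21, 6.01 and 6.19 CPM of it and those without had 26.9, 21.1 and 28.0 CPM, while agitated libraries had 0.0670 to 0.719 CPM. The sixth largest was another. Static libraries with antioxidants had 23.1, 27.4 and 35.1 CPM and those without had 157, 63.4 and 119 CPM, against 2.15 to 3.21 CPM over the agitated libraries. The groups did not overlap in either gene, and with antioxidants both stayed above their agitated levels. Over the whole set of 38, 21 genes were called higher in static than in agitated culture without antioxidants (23.7% of all genes were), 5 were called lower (24.5% of all) and 12 were not called. The same genes in cultures with antioxidants gave 10 higher (23.5% of all), 21 lower (26.6% of all) and 7 not called. These counts share the static libraries with the choice of the 38 genes, so they describe where the lowered genes stood and are not separate evidence. For the 21 genes above agitated culture without antioxidants, the medians of the mean levels were 51.4 CPM in static culture with antioxidants, 113 CPM in static culture without, 38.5 CPM in agitated culture with and 30.6 CPM in agitated culture without.

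The rises were small and even. The log2 fold changes of the 10 raised genes ran between 0.37 and 0.85 with a median of 0.68, so that none reached 2-fold. Their SEs lay between 0.064 and 0.142. Together they took 0.107, 0.117 and 0.110% of the gene reads in static libraries with antioxidants, against 0.0718, 0.0739 and 0.0714% in those without. In most of these genes the 3 libraries without antioxidants lay close together. Replicate 1 without antioxidants took no consistent side, being the lowest of its group for 4 of the 10 and the highest for another 4. The median coefficient of variation of the 10 genes was 8.76% with antioxidants and 3.93% without, where over all genes tested it was 8.71% with and 10.4% without. Low spread in a group helps a small difference past the threshold, so this is a description of genes that were called and not a comparison.

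The largest rise was that of gene3192. It had 164, 207 and 209 CPM in static libraries with antioxidants and 101, 103 and 119 CPM in those without. The log2 fold change was 0.85 ± 0.13 (SE, edgeR adjusted p = 0.0183). With replicate 1 without antioxidants left out it was 0.81 (edgeR adjusted p = 0.0343). The call was lost when any of 4 other static libraries was left out, with an edgeR adjusted p of up to 0.0887. In agitated culture the gene had 207, 223 and 169 CPM with antioxidants and 175, 218 and 205 CPM without, which overlapped. The static libraries with antioxidants were within that range or just under it, and those without antioxidants were below all 9 other libraries. The test of the difference between the culture states gave 0.85 ± 0.19 (SE, edgeR adjusted p = 0.0182).

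Gene752 rose almost as far and kept its call in every setting. It had 53.6, 54.9 and 72.2 CPM in static libraries with antioxidants and 34.1, 33.6 and 33.3 CPM in those without (log2 fold change 0.84 ± 0.10 SE, edgeR adjusted p = 0.00576). Leaving out replicate 1 without antioxidants gave a log2 fold change of 0.85 (edgeR adjusted p = 0.00956). In agitated culture it went the other way, with 80.9, 81.9 and 78.1 CPM with antioxidants and 119, 110 and 112 CPM without. The log2 fold change there was -0.50 ± 0.10 (SE, edgeR adjusted p = 0.00479). None of the 4 groups overlapped another, and the 2 groups with antioxidants lay between the 2 without. The difference between the antioxidant effects was 1.34 ± 0.14 (SE, edgeR adjusted p = 0.000424).

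**Figure D4:**
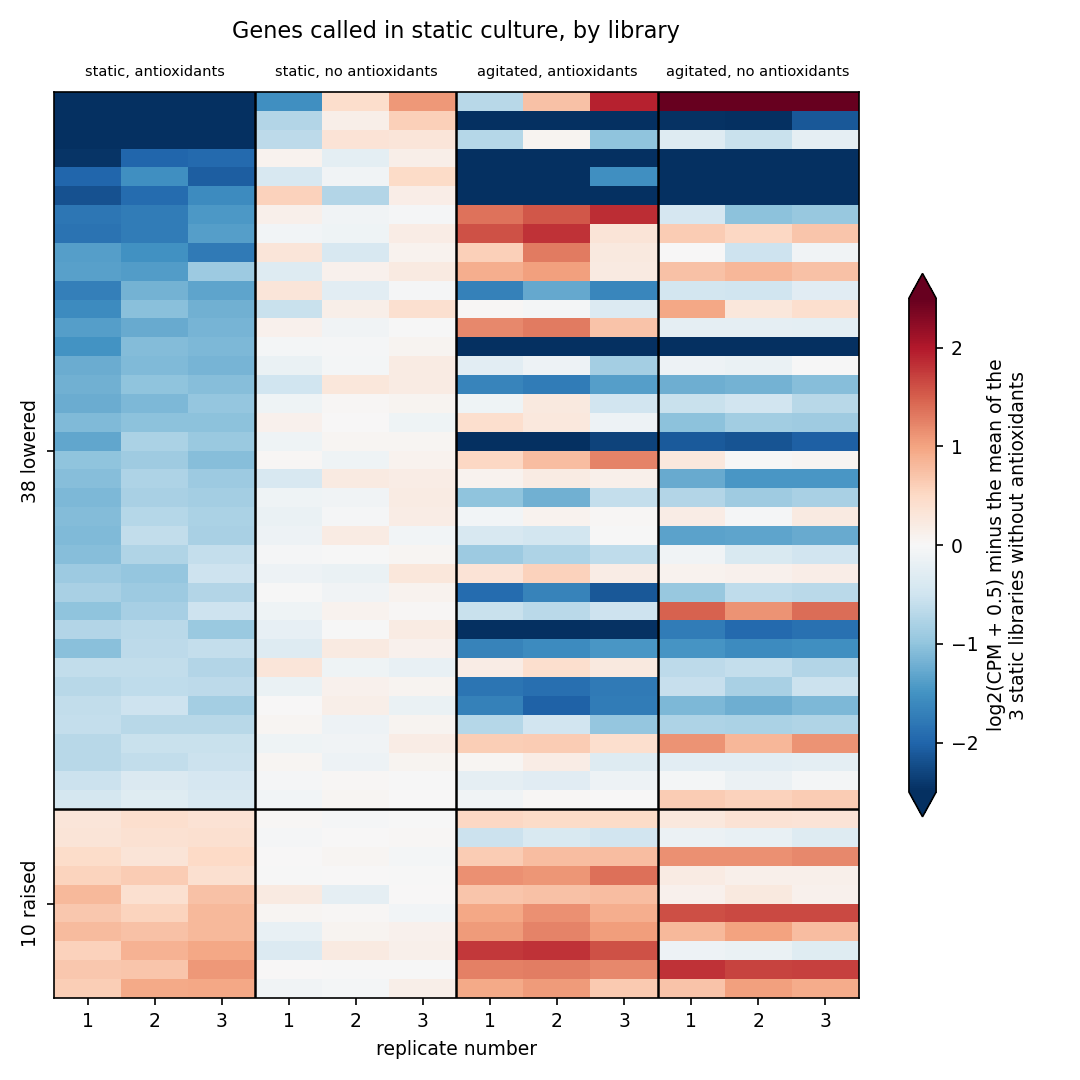
The 48 genes called in static culture (rows, largest fall at the top and largest rise at the bottom) in the 12 libraries (columns). Colour is log2(CPM + 0.5) minus the mean of the 3 static libraries without antioxidants, red for higher and blue for lower, with values beyond 2.5 drawn at the end of the scale. The 6 static columns set the order of the rows. In the 6 agitated columns most raised genes lie above the static libraries without antioxidants, while lowered genes lie on both sides of them. Between agitated columns with and without antioxidants, neither set shows a common direction.

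The agitated libraries did not show the same response over the 48 genes as a whole. They bore on the choice of the 48 through the shared filter, scaling and spread (with the 6 static libraries fitted alone 82 genes were called, 35 of the 48 among them). Of the 38 genes lowered in static culture, 11 were also called lower with antioxidants in agitated culture, where 10.6% of all genes were. Another 9 were called higher, where 11.6% of all genes were, and 18 were not called. Both counts are larger shares of the 38 than of all genes, and this difference in shares was not tested. The median agitated log2 fold change of the 38 was -0.11, with 24 genes below 0, while 49.4% of all genes tested were below 0. Of the 10 raised genes, 4 were called lower in agitated culture (10.6% of all genes were), among them 3 with consecutive numbers. Another 3 were called higher (11.6% of all) and 3 were not called, and the median of the 10 was 0.09.

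In the 11 genes that fell in both states the median falls were close in size. There, the median log2 fold change was -0.79 in static and -0.86 in agitated culture, and the test of the difference called 2 of them. Both of those fell further in agitated culture. One had 16.2, 18.5 and 22.9 CPM in static libraries with antioxidants and 30.5, 35.0 and 33.6 CPM in those without. In agitated libraries it had 22.4, 20.5 and 22.9 CPM with antioxidants and 93.0, 72.5 and 87.6 CPM without, so that the levels with antioxidants overlapped between the culture states. The eleventh largest static fall had close to the same size in both, with 42.0, 60.2 and 54.7 CPM in static libraries with antioxidants and 170, 114 and 134 CPM in those without. In agitated libraries this gene had 42.5, 56.4 and 44.3 CPM with antioxidants and 100.0, 97.1 and 113 CPM without. Its log2 fold changes were -1.41 ± 0.17 in static and -1.11 ± 0.17 in agitated culture (SE), and it was called whichever static library was left out.

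The median fall and the median rise of the 9 genes that fell in static and rose in agitated culture were close in size too. Their median log2 fold change was -1.07 in static and 1.05 in agitated culture. The medians of their mean levels were 27.9 CPM in static culture with antioxidants and 80.2 CPM in static culture without, and 136 CPM in agitated culture with and 69.3 CPM in agitated culture without. The seventh largest static fall had the widest contrast. It had 1.55, 1.65 and 2.17 CPM in static libraries with antioxidants and 7.40, 6.26 and 6.57 CPM in those without, a log2 fold change of -1.92 ± 0.22 (SE, edgeR adjusted p = 0.00541) on 39 to 45 reads with antioxidants and 64 to 156 reads without. In agitated libraries it had 18.1, 20.7 and 25.5 CPM with antioxidants and 4.91, 3.07 and 3.25 CPM without, a log2 fold change of 2.51 ± 0.20 (SE, edgeR adjusted p = 1.7e-05). The thirteenth largest static fall, a gene with many reads, did the same. Its levels were 132, 143 and 152 CPM in static libraries with antioxidants and 366, 322 and 339 CPM in those without, and 789, 844 and 562 CPM in agitated libraries with and 293, 293 and 290 CPM in agitated libraries without. In both genes the groups with and without antioxidants were apart in each culture state, in opposite directions, and both genes were called in every static setting.

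The test of the difference between the antioxidant effects, static minus agitated, called 953 genes, 9.05% of those tested, of which 502 were negative (4.77%) and 451 positive (4.28%). With replicate 1 of the static group without antioxidants left out it called 1184. It contains the static contrast by which the 48 genes were chosen, so its counts among them are a description. Of the 38 lowered genes 22 were called negative, 2 positive and 14 were not called. Of the 10 raised genes 6 were called positive, 2 negative and 2 were not called. The raised gene with the largest negative difference rose in both states. It had 109, 133 and 143 CPM in static libraries with antioxidants and 57.3, 85.2 and 79.4 CPM in those without, and 249, 256 and 220 CPM in agitated libraries with and 66.6, 65.2 and 59.0 CPM in agitated libraries without. Its log2 fold changes were 0.79 ± 0.14 in static and 1.93 ± 0.15 in agitated culture (SE).

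**Figure D5:**
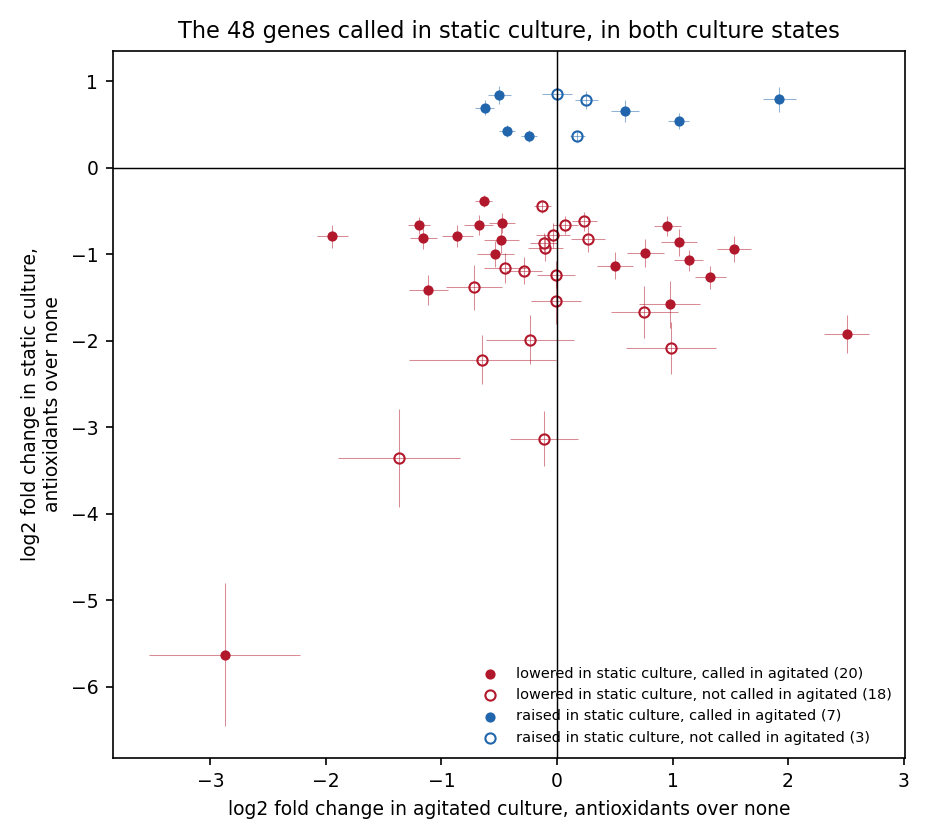
Log2 fold change, with over without antioxidants, in static culture (y axis) against agitated culture (x axis) for the 48 genes called in static culture, with SE bars. Red genes were lowered and blue genes raised in static culture, and filled points were also called in agitated culture. The rule fixes which points lie above and below 0 on the y axis, and on the x axis 24 of the 38 lowered and 4 of the 10 raised genes lie below 0.

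Both with and without antioxidants, more of the raised genes stood below their agitated levels than above, again in values that share the static libraries. Of the 10 raised genes, 6 were called lower in static than in agitated culture without antioxidants (24.5% of all genes were) and 1 was called higher (23.7% of all). Counts of 6 lower and 1 higher were also found in cultures with antioxidants, where 26.6% of all genes were lower and 23.5% higher. The genes were only partly the same. Of the 6 called lower without antioxidants, 4 were also called lower with them, among them 3 with consecutive numbers. The medians of the mean levels of the 10 raised genes were 68.8 CPM in static culture with antioxidants, 49.6 CPM in static culture without, 81.0 CPM in agitated culture with and 95.4 CPM in agitated culture without.

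Between same-numbered static libraries, each of the 38 lowered genes was lower with antioxidants in all 3 pairs, with median log2 differences of -1.05, -0.92 and -1.07. Each of the 10 raised genes was higher in all 3 pairs, with medians of 0.62, 0.63 and 0.72. These directions follow from groups that do not overlap. The median sizes were close to each other in the 3 pairs, including the one that holds the shallow replicate 1 without antioxidants. Calls favour genes with low spread in these same libraries, so this closeness is a description and not a check.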

How the data were processed

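RNA of 12 G. subvermispora libraries was used, 6 static and 6 agitated, with groups and replicate numbers taken from the sample titles. The authors deposited raw counts of reads for each gene, without normalisation. FastQC, Bowtie, Bowtie2 and HTSeq are named, without versions, in the submitters' processing notes, and per the labels' protocols the kit was for stranded total RNA. Genome build, annotation and strand setting: not given in the sources used here. Overlapping and antisense genes and near-identical copies are therefore uncertain. Lines for uncounted reads, 37.5 to 55.5% of the reads, were kept out of totals and tests.

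Genes were filtered with filterByExpr (10529 of 12313 left, and 1095 of the rest had no read) and scaled by TMM. A model of 4 group means over 12 libraries (8 residual degrees of freedom) was tested with edgeR 4.0.16 in R 4.3.3 (robust glmQLFit and glmQLFTest), with Benjamini-Hochberg adjustment over all genes of each contrast. DESeq2 1.42.0 and limma 3.58.1 were alternatives. The SE comes from the fold change and its F statistic, and log2 CPM for principal components had a prior count of 2. In every static library each lowered gene had at least 27 reads and each raised gene at least 142.

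Genes printed by number are the 2 largest rises and 2 largest falls among calls without overlap whose mean log2 CPM was at least 3. Genes given by rank were picked after their values were seen. Genes, rules and settings were chosen with earlier results of these data known. Gene lists by product could not be filled.

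Same-numbered static libraries deviated together from their group means (r across genes 0.251, 0.137 and 0.319, other pairs -0.253 to 0.0279). This was taken as pairing, on the counts alone, as no label gives the meaning of a number. Deviations from a group mean sum to 0, so the other pairs are no separate contrast, and the pairing itself was not tested. Same-numbered agitated libraries did not deviate together (-0.0495, 0.0896 and -0.0175). No 2 static replicates of a group agreed within sampling noise.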

Additional observations from a re-analysis of the deposited data

Results flagged for a closer look

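The antioxidant effect differed between static and agitated culture in 953 genes by edgeR's interaction test with Benjamini-Hochberg adjustment. Of the 4 genes printed by number, it differed in both that rose in static culture. The log2 difference, static minus agitated, was 0.85 for gene3192, whose 3 static libraries with antioxidants all lay above the 3 without, while the agitated ones overlapped. It was 1.34 for gene752, higher with antioxidants in 3 of 3 static libraries and lower in 3 of 3 agitated ones. For gene4018 and gene7418 the difference did not pass (edgeR adjusted p = 0.110 and 0.117), which does not show that their effects were alike.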

How the results depend on the processing

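In static culture 48 genes were called. RLE scaling gave 46, upper-quartile scaling 50, library totals alone 48 (35 of them shared), no filter on low counts 48, the test without its robust option 47, limma-voom 56 and thinning to the shallowest library 38. The count moved by more than 1.5 times to 248 with DESeq2, which gave no adjusted p for 1021 genes, 756 with limma-voom and library quality weights, 82 with only the 6 static libraries, 99 at an adjusted p under 0.1, and between 10 and 175 with 1 library left out. The replicate block gave 28 over 12 libraries, 322 with the 6 static libraries alone (2 residual degrees of freedom) and 90 in the static libraries within the 12-library fit, an alternative chosen after seeing the data. Of the 4 genes printed by number the block ended only the call of gene7418, and only over 12 libraries. Rises were 20.8% of the calls, 32.0% with upper-quartile scaling. The agitated count of 2343 moved to 4191 with quality weights and lay between 1436 and 2565 with 1 library left out. Rises were 52.2% of it, 39.2% with library totals alone. The count of differences, 953, moved to 1516 with DESeq2 and 2664 with quality weights and lay between 459 and 1496 with 1 library left out. Positive ones were 47.3% of it, 62.0% with library totals alone. Both highest counts with 1 library left out, 2565 and 1496, came without replicate 3 of the agitated group with antioxidants. That library had the lowest limma-voom quality weight of the 12, at 0.14, against 0.46 for static replicate 1 without antioxidants. Scalings shifted the median gene by -0.0395 to 0.0389 on the log2 scale, and no call reversed. The cause of these shifts was not tested. With 3 libraries a group and replicate 1 without antioxidants both shallow and apart from its group, the counts of calls say little of genes with small differences or few reads.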

Other observations

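Of the 10 raised genes, 3 carried consecutive numbers, the first of them gene752. Their log2 fold changes were 0.84, 0.69 and 0.43 in static culture and -0.50, -0.63 and -0.43 in agitated culture, all called by edgeR. Their mean levels were 60.2, 71.8 and 65.9 CPM in static culture with antioxidants and 33.7, 44.4 and 48.9 CPM in static culture without, and 80.3, 89.9 and 81.6 CPM in agitated culture with and 113.5, 138.8 and 110.0 CPM in agitated culture without. In each of the 3 the groups with antioxidants lay between those without.

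Among the 38 lowered genes, 4 had a lowered neighbour at the next number, and 5 lay within 20 consecutive numbers. In that stretch 18 of the 20 genes had a negative log2 fold change in static culture, including the 5 lowered genes by which it was picked. In agitated culture 14 did, where 49.4% of all genes tested were below 0. The medians of the stretch were -0.28 in static and -0.14 in agitated culture. Over all genes tested they were -0.0047 in static and 0.0032 in agitated culture. Of the 20 genes, 6 were called lower in agitated culture, among them 4 of the 5 lowered genes, where 10.6% of all genes tested were called lower. The stretch was picked for holding the most lowered genes. Both stretches were noticed after the values were seen, and whether the numbers follow position in the genome is not given in the sources used here.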
